A study of Mus musculus with 2 samples.

Results

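The 10 genes described here are the transcriptional arm of the Hippo pathway and some of its targets: the DNA-binding factors Tead1, Tead2, Tead3 and Tead4, their coactivators Yap1 and Wwtr1, and the targets Ctgf, Cyr61, Amotl2 and Lats2. They were chosen by gene symbol, and all 10 were found, once each, among 23746 records. The data are RNA sequencing of mouse medulloblastoma in 2 libraries, 1 library per genotype. Medulloblastomas are cerebellar tumours, and the SmoM2 allele is a constantly active Smoothened, which turns on Hedgehog signalling. The tumour tissue of both libraries came from mice with CAG-CreER, a tamoxifen-inducible Cre, and the Rosa26-SmoM2 transgene. Both genotypes received 10 tamoxifen injections. The wild-type library came from Brg1+/+ and the knockout library from Brg1F/F, in which Cre can delete Brg1, the chromatin-remodelling ATPase encoded by Smarca4. CAG is a broadly active promoter, so deletion is not limited to tumour cells by design. RNA was taken from dissected tumour tissue. The labels used here give no age or sex, and do not say whether a library pools animals.

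In the Hippo pathway, the kinases Stk3 and Stk4 activate Lats1 and Lats2, which phosphorylate Yap (Yap1) and Taz (Wwtr1) and keep them out of the nucleus. Unphosphorylated Yap and Taz enter the nucleus, bind Tead proteins on DNA and switch on targets such as Ctgf and Cyr61. In the cerebellum, Yap is known as a factor that supports proliferation of granule neuron precursors downstream of Hedgehog signalling. Phosphorylation and location of the proteins are not visible in RNA levels.

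Tead proteins recognise the DNA sequence GGAATG, and its reverse complement CATTCC on the other strand. Windows from 250 bases before to 50 bases after each annotated gene start were taken from RefSeq (GRCm38.p6) and matched 7 of the 10 members: Yap1, Wwtr1, Tead2, Tead3, Cyr61 (there under its newer name Ccn1), Amotl2 and Lats2. The motif, on either strand, was in a window of 6 of these 7 genes and in a window of 16.6% of the 27025 genes with windows. It was in 14.7% of the 32851 single windows of 300 bases. Tead2 was the matched gene with no GGAATG in its window. The AP-1 motif TGANTCA was in a window of 0 of the 7 and of 8.97% of all genes with windows. A match of these letters is a description of the sequence and does not show a bound site. The following stretches of 60 bases, written 5′ to 3′ on the gene's strand with the Tead motif in capitals, show where it lies in 2 targets and in both coactivators.
Cyr61, chr3:145650056-145650115, minus strand: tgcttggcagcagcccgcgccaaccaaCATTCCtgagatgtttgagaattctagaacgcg
Amotl2, chr9:102717712-102717771, plus strand: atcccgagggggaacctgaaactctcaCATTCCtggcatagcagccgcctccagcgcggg
Yap1, chr9:8004705-8004764, minus strand: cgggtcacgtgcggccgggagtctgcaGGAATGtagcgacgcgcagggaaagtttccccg
Wwtr1, chr3:57576014-57576073, minus strand: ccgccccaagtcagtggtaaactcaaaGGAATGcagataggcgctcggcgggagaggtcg

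Counted from an annotated gene start as +1, the motif began at -103 in Cyr61, -65 in Amotl2 and -141 in Yap1. In Wwtr1 the same motif began at -136 from an annotated start and at -170 from another. In Lats2 it began at position 5 from an annotated start, and the window of another start held no motif. Tead3, which had a lower FPKM in the knockout library, held the most matches, 4 in the windows of 2 of its 3 annotated starts: at -182 from one start, and at -123, -114 and 3 from another. In the 2 targets printed above, the motif was on the strand opposite to the gene, and in the 2 coactivators it was on the gene's own strand. The 250 bases before the RefSeq start of Cyr61 and of Tead2 are given whole as examples of a window with the motif and a window without it. Cyr61 is a target that was higher in the knockout library, and Tead2 is the member with the lowest log2 ratio. The RefSeq start of Tead2 lies inside its deposited record, so the last bases of its stretch fall within that record.
Cyr61, chr3:145649986-145650235, minus strand: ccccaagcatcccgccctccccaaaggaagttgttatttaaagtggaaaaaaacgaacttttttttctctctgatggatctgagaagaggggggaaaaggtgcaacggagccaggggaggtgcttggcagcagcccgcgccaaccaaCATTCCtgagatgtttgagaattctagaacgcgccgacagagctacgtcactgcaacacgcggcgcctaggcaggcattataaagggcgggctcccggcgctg
Tead2, chr7:45215542-45215791, plus strand: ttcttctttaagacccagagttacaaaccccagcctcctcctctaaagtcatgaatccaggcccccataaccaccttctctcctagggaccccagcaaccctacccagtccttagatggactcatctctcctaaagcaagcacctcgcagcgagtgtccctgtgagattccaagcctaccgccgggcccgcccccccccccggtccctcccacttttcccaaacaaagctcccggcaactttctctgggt

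Levels are the deposited FPKM, fragment counts scaled by transcript length and by the mapped fragments of the library, so they can be compared between genes within a library. The files hold a lower and an upper bound for each FPKM. How these bounds were made is not given in the sources used here, and they are not an error between animals. Differences are log2((knockout FPKM + 1)/(wild-type FPKM + 1)), which understates differences of low genes, and at least 2-fold means that this log2 ratio reached 1 or -1. Since each genotype has 1 library, differences carry neither a replicate check nor an error or a test, and "higher" and "lower" compare these 2 libraries. Records with at least 1 FPKM in 1 library (13279) were called expressed.

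Smarca4 had 14.0 FPKM in wild type and 3.76 FPKM in the knockout, a whole-gene value that also covers exons outside a deletion and so does not measure the deleted share. Granule precursor and Hedgehog markers, which define this tumour type, were present in both libraries. In the knockout library 7 of 8 were at least 2-fold lower (median log2 ratio -2.60), beside 8.67% of all expressed records. FPKM summed to 388032 in the wild-type and 343028 in the knockout library. Rescaling both to the same sum moves the median of all expressed records from 0.09 to 0.25 on the log2 scale. The FPKM lay outside its own deposited bounds for 49.0% of expressed records in the wild-type and 51.2% in the knockout library. Xist (268 and 0.369 FPKM) and the Y-linked gene Ddx3y (0.00687 and 25.1 FPKM) also differed, so the sex of the mice cannot be told apart from the genotype. Because tissue was sequenced in bulk, fewer cells of a type and less RNA per cell cannot be told apart.

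The abundant Tead factors and the secreted targets differed in opposite directions. In the knockout library Tead1 and Tead2, which supplied nearly all Tead transcript, were at least 2-fold lower. Ctgf and Cyr61 were at least 2-fold higher, and both coactivators stayed within 2-fold. Of the 10 members, 9 were expressed, 2 were at least 2-fold lower and 2 at least 2-fold higher. Among all expressed records 8.67% were at least 2-fold lower and 16.1% at least 2-fold higher, and with so few genes the counts alone are no result about the members as a set. At a limit of 4-fold, Tead2 was lower (1.5% of expressed records) and Ctgf higher (4.17%). At a limit of 1.5-fold, Tead1 and Tead2 were lower (18% of expressed records), and Ctgf, Cyr61 and Wwtr1 were higher (28.1%).

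**Figure D1:**
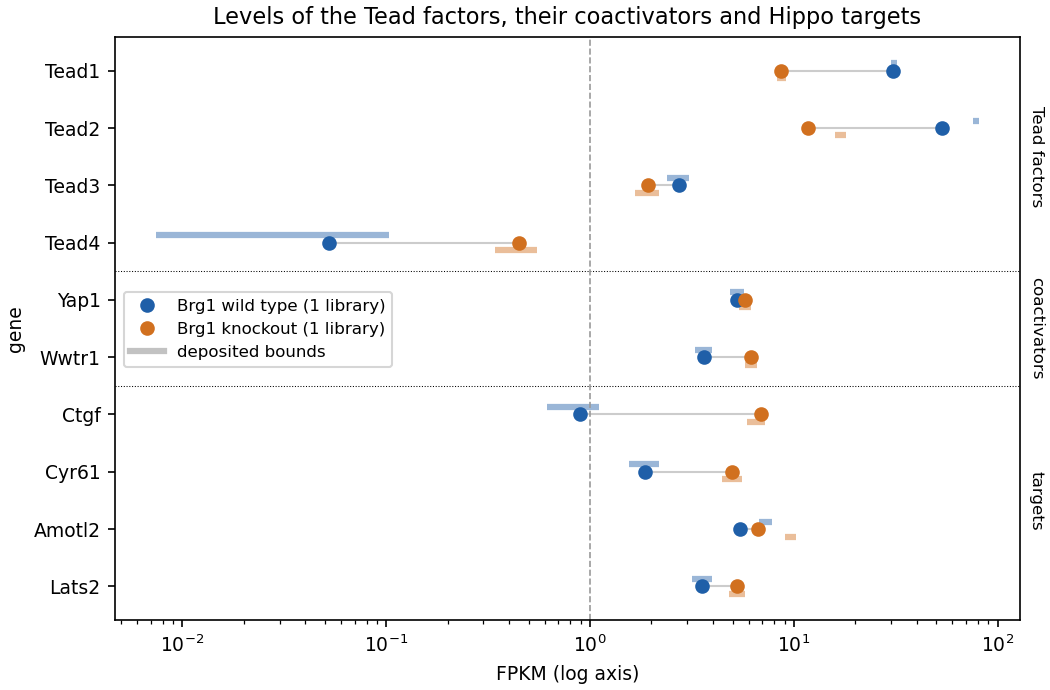
FPKM of each member in the wild-type library (blue points) and the knockout library (orange points) on a log axis, with the deposited bounds as thick lines above and below the points and 1 FPKM as a dashed line. Tead1 and Tead2 lie to the left in the knockout library, Ctgf and Cyr61 to the right, and the points of Tead2 and Amotl2 lie outside their own bounds.

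Tead2 (mm10 chr7:45215753-45233619, plus strand) is the Tead factor known for high expression in early neural progenitors. It had 53.3 FPKM in wild type and 11.7 FPKM in the knockout, a level at 21.9% of that in wild type (log2 ratio -2.10). In the wild-type library it was the most abundant member and stood at rank 1127 of the 13279 expressed records, and in the knockout library at rank 5601. Only 1.27% of expressed records had a log2 ratio as low or lower. Its deposited bounds were 75.5 to 80.6 FPKM in wild type and 15.9 to 18.1 FPKM in the knockout, above the FPKM itself in both. The midpoints of these bounds gave a log2 ratio of -2.13, so the difference was about as large from either column while the level was not.

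Tead1 (chr7:112679320-112906805, plus strand), a broadly expressed Tead factor, had 30.8 FPKM in the wild-type library, with bounds of 29.9 and 32.0, and 8.66 FPKM in the knockout, with bounds of 8.23 and 9.12. The knockout level was 28.1% of that in wild type (log2 ratio -1.72), and 2.55% of expressed records had a ratio as low or lower. Its rank went from 2144 to 6932. By FPKM, Tead2 was the most abundant of the 10 members and Tead1 the second in both libraries. In the knockout library, however, the bounds of Amotl2 (9.07 to 10.2) lay above the FPKM of Tead1. They overlapped the bounds of Tead1 and reached higher, so its second place there depends on the column used.

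Tead3 (chr17:28331673-28350805, minus strand) had 2.72 FPKM in wild type and 1.92 FPKM in the knockout and stayed within 2-fold (log2 ratio -0.35). Tead4 (chr6:128227143-128300813, minus strand), known for its part in trophoblast and muscle, was under 1 FPKM in both libraries, with 0.0521 FPKM in wild type and 0.447 FPKM in the knockout, and was not counted as expressed. The knockout value of Tead4 was the higher, and the bounds of its values did not overlap, but a level this low supports no more than that description.

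Summed over the 4 Tead genes, FPKM was 86.9 in the wild-type and 22.7 in the knockout library, 26.1% of the wild-type sum (log2 ratio of the sums -1.94, with no pseudocount). Tead2 made up 61.4% of the wild-type sum and Tead1 35.5%, and together they held 96.8%. In the knockout library Tead2 made up 51.4%, Tead1 38.2%, Tead3 8.46% and Tead4 1.97%. Tead2 was at 1.73 times the FPKM of Tead1 in wild type and at 1.35 times in the knockout. These sums, shares and ratios depend on the column used, since the FPKM of Tead2 lay below its own bounds in both libraries and that of Tead1 inside. From the midpoints of the bounds the log2 ratio of the sums was -1.99. The share of Tead3 was larger in the knockout library although its own FPKM was lower there.

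Yap1 and Wwtr1 bind Tead proteins and carry the activation function. Yap1 (chr9:7932001-8004596, minus strand) had 5.26 FPKM in the wild-type library, with bounds of 4.86 and 5.67, and 5.76 FPKM in the knockout, with bounds of 5.36 and 6.17. The bounds overlapped, and Yap1 was the member with the smallest log2 ratio in size (0.11), close to the median of all expressed records (0.09). Wwtr1 (chr3:57455644-57575910, minus strand), which encodes Taz, had 3.61 FPKM in the wild-type library, with bounds of 3.28 and 3.95, and 6.17 FPKM in the knockout, with bounds of 5.75 and 6.59. Its bounds did not overlap, but its log2 ratio of 0.64 stayed inside the 2-fold limits. Yap1 was at 1.46 times the FPKM of Wwtr1 in wild type, whereas in the knockout Wwtr1 was at 1.07 times the FPKM of Yap1, with overlapping bounds.

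The balance of factors and coactivators differed between the libraries. The coactivators summed to 8.88 FPKM in wild type and 11.9 FPKM in the knockout. For each FPKM of coactivator transcript there were 9.79 FPKM of Tead transcript in wild type and 1.90 in the knockout. These are ratios of RNA levels and say nothing of the amounts of protein. They also rest on the FPKM of Tead2, which lay below its own bounds in both libraries.

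**Figure D2:**
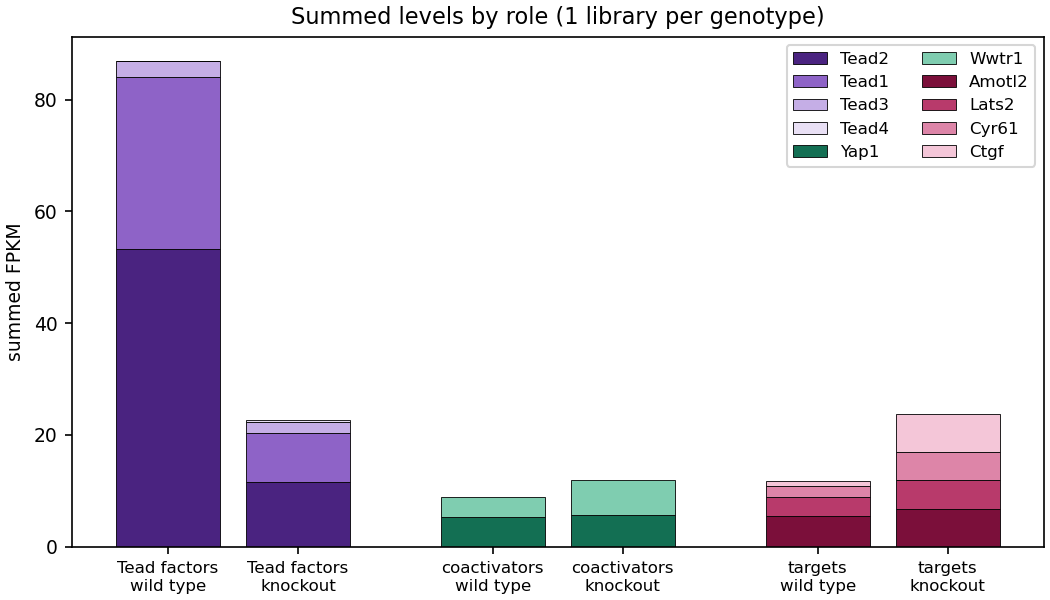
Summed FPKM of the Tead factors, the coactivators and the targets in each library, with 1 coloured segment per gene and the axis starting at 0. The Tead sum is 86.9 in the wild-type and 22.7 in the knockout library, while the target sum is 11.8 and 23.8.

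Ctgf and Cyr61 encode secreted matricellular proteins of the CCN family and are the most used readouts of Yap and Taz activity. Ctgf (chr10:24595442-24598682, plus strand) had 0.889 FPKM in the wild-type library, with bounds of 0.612 and 1.11, and 6.87 FPKM in the knockout, with bounds of 5.89 and 7.23. The knockout value was 7.73 times the wild-type value (log2 ratio 2.06 with the added 1 FPKM), and 96.2% of expressed records had a ratio as low or lower. By FPKM it was the lowest expressed member in the wild-type library and the third most abundant in the knockout library, where the bounds of Amotl2 (9.07 to 10.2) nevertheless lay above those of Ctgf. Because Ctgf was under 1 FPKM in the wild-type library, it counts as expressed only through its knockout value.

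Cyr61 (chr3:145646971-145649985, minus strand) had 1.87 FPKM in the wild-type library, with bounds of 1.55 and 2.19, and 4.99 FPKM in the knockout, with bounds of 4.43 and 5.55. The knockout value was 2.67 times the wild-type value, and the log2 ratio of 1.06 lay just past the limit of 1. After centring on the median of all expressed records the log2 ratio of Cyr61 was 0.97, inside the limit.

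Amotl2 and Lats2 are targets that also act back on the pathway, Amotl2 as an angiomotin that holds Yap in the cytoplasm and Lats2 as the kinase that phosphorylates it. Amotl2 (chr9:102717804-102733417, plus strand) had 5.44 FPKM in wild type and 6.70 FPKM in the knockout (log2 ratio 0.26). Its deposited bounds, 6.72 to 7.84 and 9.07 to 10.2 FPKM, again lay above the values themselves. Lats2 (chr14:57689662-57746123, minus strand) had 3.55 FPKM in the wild-type library, with bounds of 3.16 and 3.95, and 5.28 FPKM in the knockout, with bounds of 4.79 and 5.79 (log2 ratio 0.47). Both feedback targets were within 2-fold. The Lats2 record overlaps another protein-coding gene model, Gm49361, on the same strand in GENCODE, so some of its reads could belong to that model. Yap1, Wwtr1, Tead1, Tead4, Ctgf and Lats2 overlap non-coding or pseudogene models on the other strand. Tead1 also overlaps a miRNA model on its own strand. Since no strand setting is given, reads of models on the other strand cannot be told apart from those of the members.

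All 4 targets had a higher FPKM in the knockout, and their median log2 ratio was 0.76, against 0.09 over all expressed records. Since that overall median is itself above 0, a higher knockout value alone does not set a gene apart. The share of expressed records with a ratio as low or lower was 58.3% for Amotl2, 67.6% for Lats2 and 85.3% for Cyr61. The 5 expressed factors and coactivators had a median of -0.35, with a range of -2.10 to 0.64. That median is the value of Tead3 and hides the split between Tead1 and Tead2 on the one side and the coactivators on the other. Summed FPKM of the targets was 11.8 in the wild-type and 23.8 in the knockout library, 203% of the wild-type sum. In the wild-type library the 10 members covered 53.3 to 0.0521 FPKM, with Tead2 and Tead1 far above the rest. In the knockout library the 6 members from Ctgf, the third in order of FPKM, down to Cyr61 lay between 6.87 and 4.99 FPKM, and the neighbours from Wwtr1 through Yap1 and Lats2 to Cyr61 had overlapping bounds.

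**Figure D3:**
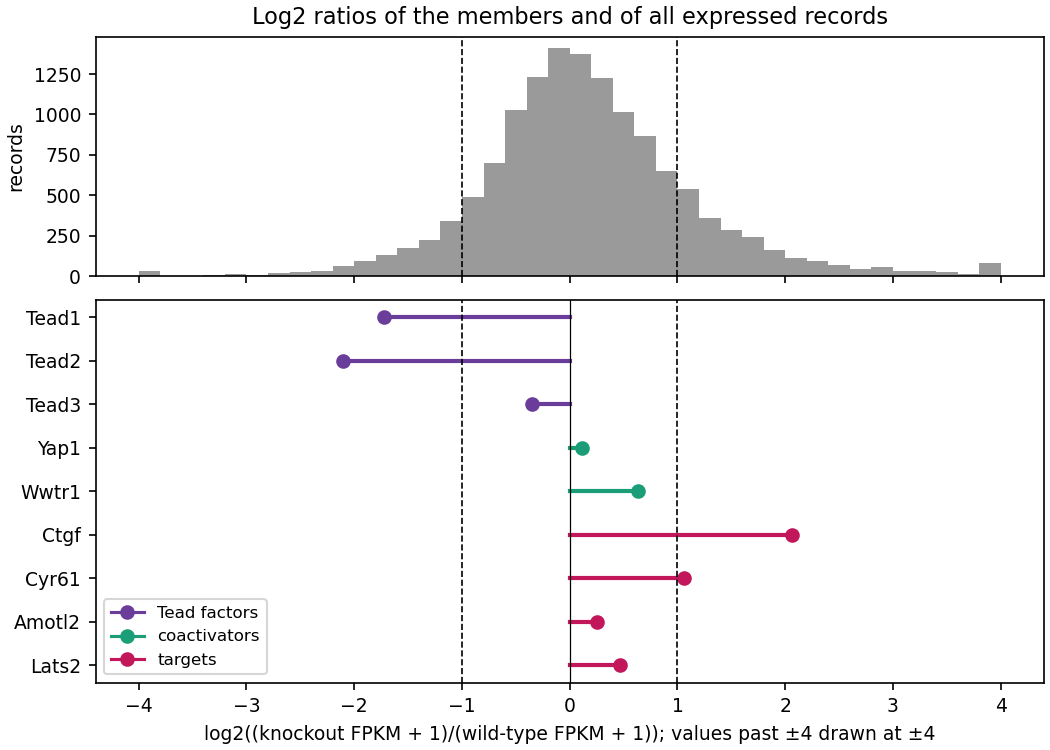
Log2 ratios of the 13279 expressed records as a histogram (top, values beyond 4 in either direction drawn at that end) and of the 9 expressed members by role (bottom), with dashed lines at 1 and -1. Tead1 and Tead2 lie past -1, Ctgf and Cyr61 past 1, and the other 5 expressed members lie between the lines.

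All 6 core kinases and adaptors of the cassette upstream of Yap were expressed, with 1 at least 2-fold lower and 0 higher (median log2 ratio -0.04), beside 8.67% lower and 16.1% higher among all expressed records. The lower gene was Sav1, the scaffold that links Stk3 and Stk4 to Lats kinases, with 21.6 FPKM in wild type and 9.66 FPKM in the knockout (log2 ratio -1.08, or -0.92 with FPKM rescaled to the same sum). Mob1a, the coactivator of Lats kinases, had 19.6 and 15.4 FPKM. Lats1, named after its values were seen because it is the paralogue of Lats2, had 15.8 and 13.1 FPKM, and so exceeded Lats2 in both libraries.

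Of 20 upstream regulators 17 were expressed, 2 of them at least 2-fold lower and 0 higher (median 0.03), again beside 8.67% and 16.1% of all expressed records. Both lower genes encode Ajuba-type LIM proteins, which restrain Lats kinases at cell junctions. Wtip had 8.28 FPKM in wild type and 2.90 FPKM in the knockout (log2 ratio -1.25). Limd1 had 9.32 and 4.13 FPKM (log2 ratio -1.01), but -0.85 with FPKM rescaled to the same sum and -0.87 from the midpoints of the bounds. The remaining family member, Ajuba, listed under its older symbol Jub, had 1.07 and 0.604 FPKM (log2 ratio -0.37). Among the Vestigial-like cofactors, which compete with Yap for Tead proteins, 1 of 4 was expressed. This was Vgll4, a repressor of Tead activity, with 11.8 and 10.0 FPKM (log2 ratio -0.22). Vgll3 had 0.0177 and 0.0542 FPKM, and Vgll1 and Vgll2 were listed at 0 in both libraries.

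Genes of a published list of 22 Yap and Taz targets, drawn from human cancers, were then counted without the 4 that are members. Of these 18 genes 15 were expressed, 5 were at least 2-fold higher and 1 lower in the knockout library (median log2 ratio 0.72), beside 16.1% higher and 8.67% lower and a median of 0.09 among all expressed records. F3, the gene of tissue factor, had 7.67 FPKM in wild type and 40.7 FPKM in the knockout (log2 ratio 2.27). Gadd45b, a stress-response gene, had 3.66 and 18.6 FPKM (log2 ratio 2.07), and the receptor tyrosine kinase gene Axl had 4.90 and 13.9 FPKM (log2 ratio 1.34). Igfbp3 and Crim1, named to complete the count, had log2 ratios of 1.33 and 1.06, and Crim1 had 0.97 after centring on the median.

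Foxf2, a forkhead factor gene, was the 1 gene of this list that was at least 2-fold lower, with 35.6 FPKM in wild type and 5.54 FPKM in the knockout (log2 ratio -2.48). Ankrd1, another common readout of Yap, was listed at 0 in both libraries. With the members included, 7 of 19 expressed targets of the 22 were at least 2-fold higher and 1 lower, with a median of 0.72. The members and lists were taken up with earlier results of these libraries known, so these counts are no independent support for a direction.

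Within the CCN family 4 of 6 genes were expressed and 3 were at least 2-fold higher (median 1.22), beside 16.1% among all expressed records. Ctgf and Cyr61 are 2 of these 3 and were already counted as members, and Cyr61 was inside the limit after centring. The third was Nov, with 0.856 FPKM in wild type and 3.80 FPKM in the knockout (log2 ratio 1.37). Wisp2 had 0.0741 and 1.07 FPKM (log2 ratio 0.94). Like Ctgf, Nov and Wisp2 reached 1 FPKM in the knockout alone, so they passed the filter through that library.

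**Figure D4:**
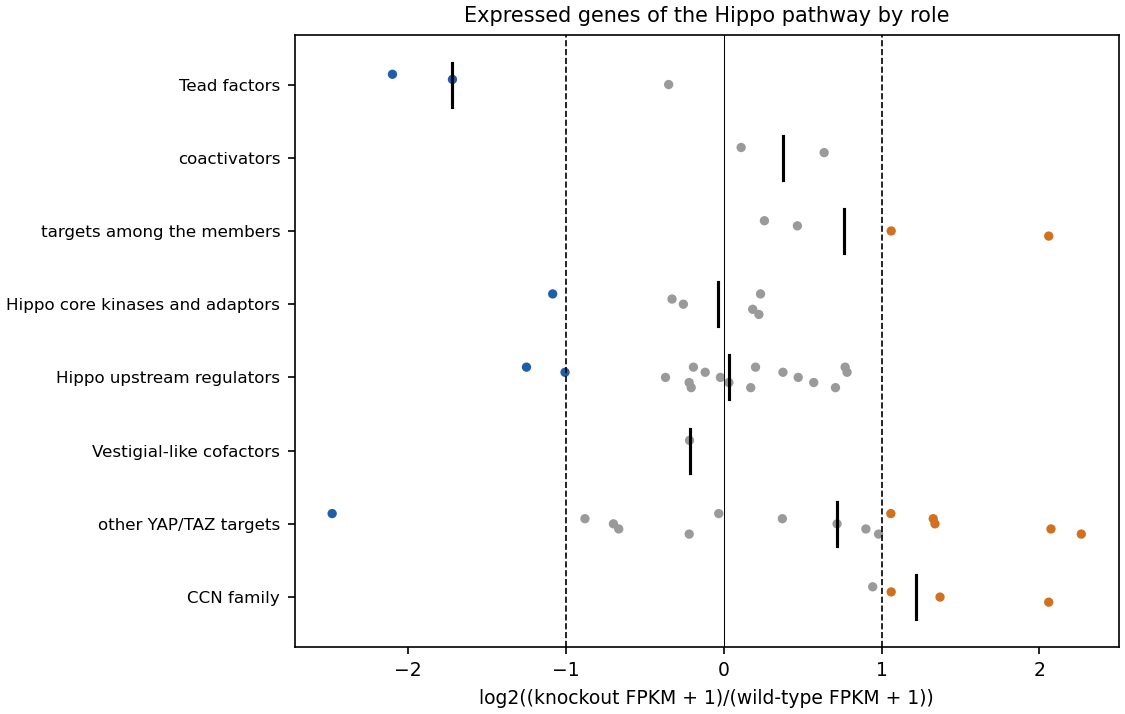
Log2 ratios of the expressed genes of each pathway list (1 point per gene, orange for at least 2-fold higher and blue for at least 2-fold lower, knockout against wild type, grey between), with the list median as a black bar. Kinases and upstream regulators centre near 0, while Tead1 and Tead2 lie below -1 and Ctgf lies beyond 2.

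Markers of several cell types differed between the libraries along with the members, and their part in these differences was not tested. Of the proliferation markers 9 of 9 were at least 2-fold lower, beside 8.67% of all expressed records. Their median log2 ratio was -2.13, with a range of -2.87 to -1.26, and their summed FPKM was 950 and 260. The log2 ratios of Tead1 and Tead2 were -1.72 and -2.10. Ccnd1 had 107 and 16.6 FPKM and Sfrp1 178 and 39.1 FPKM among the precursor and Hedgehog markers, whose range was -3.19 to -0.48. Pcna had 321 and 121 FPKM and Ube2c 180 and 23.8 FPKM among the proliferation markers.

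Cells of vessels and meninges are known sources of Ctgf and Cyr61. Of 10 endothelial markers 9 were expressed and 1 was at least 2-fold higher, beside 16.1% of all expressed records. Their median was 0.48 and their summed FPKM 33.5 and 53.4, with Cldn5 at 10.9 and 14.6 FPKM and Slco1c1 at 7.10 and 12.4 FPKM. Of 13 pericyte, fibroblast and meninges markers 12 were expressed, 3 were higher and 0 lower, beside 16.1% and 8.67% of all expressed records. Their median was 0.54 and their summed FPKM 47.5 and 141, with Dcn at 18.7 and 71.6 FPKM and Vtn at 7.34 and 37.8 FPKM. With so few genes these counts are no result about vessel or meningeal cells. No marker of either list was at 0 in either library. The lowest wild-type values were 0.320 FPKM (endothelial) and 0.686 FPKM (pericyte, fibroblast and meninges). Some markers of both lists thus counted as expressed through the knockout library alone, and those under 1 FPKM in both libraries were left out. The expressed endothelial markers had log2 ratios of 0.26 to 1.20, and those of pericytes, fibroblasts and meninges -0.41 to 2.22. Astrocyte and Bergmann glia markers ranged from -0.95 to 3.80, and microglia and macrophage markers from 0.37 to 2.53. The range was -0.23 to 0.95 for choroid plexus and ependyma and 2.76 to 4.17 for oligodendrocyte markers. It was 4.18 to 6.50 for Purkinje cell and 1.10 to 6.01 for mature granule neuron markers. Cyr61 had 1.06 and Ctgf 2.06. Such ranges are set by single genes and by the length of a list, so they do not show a source. Which cells supplied the Ctgf and Cyr61 transcripts was not tested.

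Of 10 astrocyte and Bergmann glia markers, 9 were higher and 0 lower, beside 16.1% and 8.67% of all expressed records. Their median was 1.78 and their summed FPKM 508 and 2577, with Aldoc at 64.6 and 912 FPKM and Gfap at 83.5 and 629 FPKM. The remaining gene, Sox9, named after its values were seen, had 10.1 FPKM in wild type and 4.74 FPKM in the knockout (log2 ratio -0.95). Of 10 markers of microglia and macrophages, 8 were at least 2-fold higher, again beside 16.1% of all expressed records. Their median was 1.27 and their summed FPKM 218 and 491, with C1qb at 96.3 and 221 FPKM. All 7 oligodendrocyte markers (median 3.35), all 7 Purkinje cell markers (median 5.23) and all 6 mature granule neuron markers (median 3.88) were at least 2-fold higher. In wild type the lowest values of these lists were 0.211, 0.460 and 0.694 FPKM, and of the microglia and macrophage list 0.605 FPKM. Some markers of each list thus passed the filter through the knockout library alone. Of 6 choroid plexus and ependyma markers 0 passed the limits (median 0.13), with Ttr at 997 and 1070 FPKM.

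**Figure D5:**
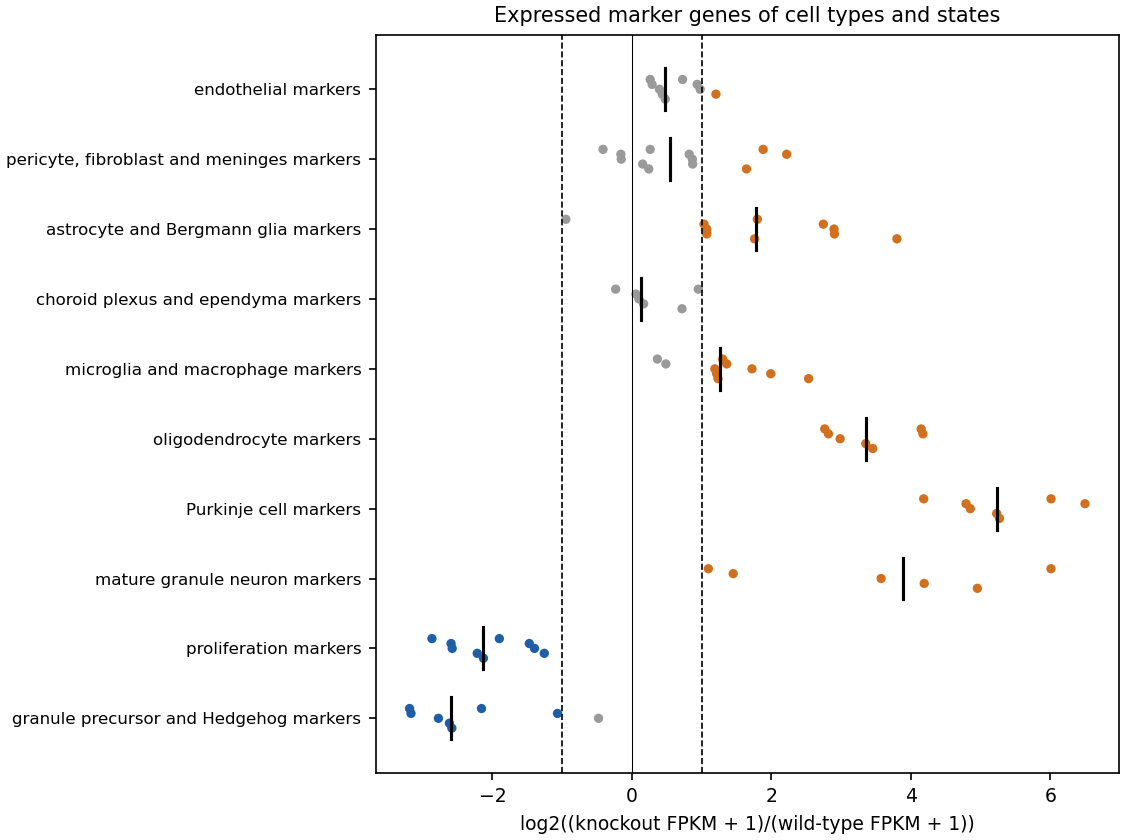
Log2 ratios of expressed marker genes (1 point per gene, colours and dashed lines as for the pathway lists, black bars for medians). Proliferation and precursor markers lie on the side of Tead1 and Tead2, and markers of mature neurons and glia other than Sox9 (-0.95) lie on the side of Ctgf and Cyr61.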

How the data were processed

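RNA of SmoM2 medulloblastoma was sequenced in 1 Brg1 wild-type and 1 Brg1 knockout library. Per the file headers, the authors deposited FPKM per gene with a lower and an upper bound and a status, which was OK for every gene named here. The submitters' processing notes name mm10 and Cuffdiff 2.1.1, with no role for either. Aligner, annotation, strand setting and filters: not given in the sources used here. Since no counts are in the files, depth is unknown: among 650 records under 0.05 FPKM in both libraries, the fullest bin of knockout to wild-type ratios (0.1 wide, log2) held 50, so no whole reads were recovered. Start positions count from 0 in the files and from 1 here. Genes expressed in at least 1 library at 1 FPKM were compared by log2((knockout FPKM + 1)/(wild-type FPKM + 1)) with a limit of 2-fold. The members and gene lists were chosen with earlier results of these data known. All 10 members were to be named, with Smarca4, up to 4 genes per pathway list past the limit (or the 2 most abundant where fewer than 2 passed), and the 2 most abundant genes of marker lists. Not every gene the rule took is printed. Alternatives were pseudocounts of 0.1 and 0.5, 3 other scalings, midpoints of the bounds, status OK alone, limits of 1.5-fold and 4-fold, other filters, and means. Gene overlaps came from GENCODE (mm10) and promoter windows from RefSeq. The work used pandas 2.3.3 and numpy 2.4.6 under Python 3.11.15, with figures from matplotlib 3.10.9.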

Additional observations from a re-analysis of the deposited data

How the results depend on the processing

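The log2 ratios of the 9 expressed members kept their direction under each of 7 alternatives. All but Cyr61 (0.97 after centring on the median) stayed on their side of the 2-fold limits. The pseudocounts of 0.1 and 0.5 cannot change a direction, and status OK alone left out no member. Only the 3 other scalings and the midpoints of the bounds could have changed a direction. Tead1 ranged from -1.82 to -1.55, Tead2 from -2.19 to -1.93 and Ctgf from 1.97 to 2.82. With FPKM rescaled to the same sum, the log2 ratio of summed Tead FPKM was -1.76. The median of factors and coactivators was then -0.23 and that of the targets 0.90. Under this rescaling 2 other pathway genes were at least 2-fold lower in place of 4. With a pseudocount of 0.1 these medians were -0.48 and 0.96, and 11 other pathway genes were at least 2-fold higher in place of 6. The median of factors and coactivators was -0.12 with no filter on low values, and means in place of medians were -0.68 and 0.96. With at least 5 FPKM in 1 library the medians were -0.81 and 0.47. With this filter 1 member was at least 2-fold higher, since it left out Cyr61. Centring left 1 member at least 2-fold higher. At 4-fold, 1 member was lower and 1 higher, with 1 other pathway gene lower and 2 higher, and at 1.5-fold 7 other pathway genes were lower and 13 higher. No paired analysis was possible because there is 1 library per genotype, and no library could be left out. Depth is unknown, so the counting error of low values such as Tead4 and wild-type Ctgf cannot be given.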
